A study of Mus musculus with 10 samples.

Results

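The transcriptomes of LSK and GMP were compared in mice with Dnmt3a knocked out (KO) in blood-forming cells. Of the 10 RNA-seq libraries of the study 6 were used, 3 of LSK and 3 of GMP from KO animals. LSK (lineage-negative, Sca1+ and cKit+) is the bone marrow fraction that holds haematopoietic stem cells and multipotent progenitors, and GMP (lineage-negative, Sca1-, cKit+, CD34+ and FcgR+) is the granulocyte-macrophage progenitor fraction. KO mice were Dnmt3a f/f with the Mx1-Cre transgene, and CTRL mice, with 2 LSK and 2 GMP libraries, were Dnmt3a f/f without it. All were C57BL/6, were 12 months old and, per the labels, received 5 injections of poly(I:C), which induces the interferon-responsive Mx1 promoter, so the deletion cannot be told apart from the presence of Cre. Mx1-Cre is active in blood-forming cells and also in some other interferon-responsive cells, and a sorted bulk library does not show which cells recombined.

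Dnmt3a encodes a de novo DNA methyltransferase, which sets methyl groups on unmethylated CpG sites, and it is known for its role in the differentiation of haematopoietic stem cells and as a gene mutated in myeloid malignancy. The step from LSK to GMP is known for the loss of stem cell and lymphoid programmes, the loss of megakaryocyte and erythroid potential, and the gain of granule and monocyte genes under transcription factors such as Cebpa and Spi1. The comparison asks how much of that difference between populations is present in KO mice, with the CTRL libraries as the measure.

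The members were the 38086 Ensembl genes listed in both count tables, of which 15625 had 0 counts in all 5 libraries of at least 1 table and were dropped. Of those, 11518 were at 0 in both tables, 2823 in LSK alone, among them the mitochondrially encoded genes, and 1284 in GMP alone. That left 22461 genes, and 18573 passed the filter on low counts and were tested. Gene counts were 93850256 to 122658636 per GMP library and 29533371 to 30437981 per LSK library. Population therefore coincides with count table, gene annotation and depth, and their parts in any LSK against GMP difference cannot be told apart. An effect cancels between the KO and CTRL differences if it changes a gene by the same factor in all 5 libraries of a table. Whether table, annotation and depth act so was not tested. The first principal component held 83.8% of variance, with GMP at -72.5 to -61.0 and LSK at 63.4 to 67.9, and the second (6.2%) spread the GMP libraries from -35.1 to 34.3 but the LSK libraries only from -1.2 to 4.7. On the second component GMP library KO-352 lay at 13.4, between CTRL-350 (7.5) and CTRL-346 (34.3) and apart from KO-178 (-24) and KO-179 (-35.1). The description of GMP library KO-352 points to LSK data, against its title. The title was followed, and on the first component KO-352 lay at -70.7. Counts of Xist and of Y-linked genes were male in every GMP library and in LSK libraries KO-1327 and CTRL-1326, and female in KO-1333, KO-1334 and CTRL-1330.

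Among the genes behind the gates, Ly6a and Fcgr3 followed the labels. Cd34, which the GMP gate requires, was higher in LSK of KO mice (log2 fold change 0.90). So was Kit (1.43), which both gates require. Ly6a, which encodes Sca1, was higher in LSK of KO mice by 3.39 ± 0.16 (log2 fold change ± SE; adjusted p = 1.1e-06, edgeR), and Fcgr3, which encodes an Fc receptor of the GMP gate, was lower by -4.13 ± 0.12 (adjusted p = 1.98e-07). Here and throughout, a positive log2 fold change is higher in LSK, adjusted p is from the quasi-likelihood test of edgeR with Benjamini-Hochberg adjustment over all tested genes, a gene is called at an adjusted p under 0.05, and CPM is the count scaled by the normalised library size. Values of single libraries are listed in the order KO-1327, KO-1333, KO-1334 (LSK), KO-178, KO-179, KO-352 (GMP), CTRL-1326, CTRL-1330 (LSK) and CTRL-346, CTRL-350 (GMP).

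Dnmt3a itself (chromosome 12, 3806007 to 3914443, GRCm38) was reduced in both KO populations. It was at 56.0, 51.7 and 57.6 CPM in the LSK libraries of KO mice, against 152 and 147 CPM in LSK of CTRL mice. In GMP it was at 52.2, 66.5 and 20.7 CPM in KO mice, against 145 and 116 CPM in CTRL. KO and CTRL libraries did not overlap in either population, and KO-352 was the lowest of the 10. LSK and GMP of KO mice overlapped, with a log2 fold change of 0.25 ± 0.34 (adjusted p = 0.546), which was -0.101 without KO-352. Counts cover the whole gene, including exons outside the deleted part, and give no share of deleted cells.

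The difference between LSK and GMP was broad in KO mice. Of 18573 genes 11171 (60.1%) were called, 5646 (30.4%) higher in LSK and 5525 (29.7%) higher in GMP. The libraries of both populations did not overlap for 12660 genes (68.2%), 6557 (35.3%) with LSK above and 6103 (32.9%) with GMP above. Because so many genes differed, a stricter call was added, in which edgeR's glmTreat tests whether a difference exceeds 2-fold. It held for 3907 genes (21.0%), 2560 (13.8%) higher in LSK and 1347 (7.25%) higher in GMP. Large differences were more often toward LSK: among genes called beyond 2-fold, 774 had a fitted log2 fold change over 4 toward LSK and 211 toward GMP. In KO mice 3 reads over a group equal 0.0106 CPM in GMP and 0.0293 CPM in LSK, so lower levels can be measured in GMP. The part of depth in these counts was not tested.

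CTRL mice showed most of the same difference. There 9047 genes (48.7%) were called, 4517 (24.3%) higher in LSK and 4530 (24.4%) in GMP, and 3014 (16.2%) were called beyond 2-fold, 2056 (11.1%) toward LSK and 958 (5.16%) toward GMP, with 2 libraries a group against 3 in KO. The contrasts share no library, but both set the same LSK table against the same GMP table. An effect of table, annotation or depth that is present in both genotypes would also count as shared. Its part in the shared calls and correlations below was not tested. Of the genes called in CTRL, 7900 were called in KO in the same direction, which is 87.3% of the CTRL calls and 70.7% of the KO calls, and 2 were called in the opposite direction. Beyond 2-fold, 2436 genes were shared, 80.8% of the CTRL calls and 62.4% of the KO calls, and 0 were opposite. Of the 3014 CTRL genes beyond 2-fold, 2994 had the same sign in KO and 2858 were called there. Across all 18573 genes the log2 fold changes of KO and CTRL had a Pearson correlation of 0.845 and a Spearman correlation of 0.880, a description across genes, which are not independent replicates. The median size of the log2 fold change was 0.78 in KO and 0.83 in CTRL. The CTRL count rests on each of its LSK libraries: it was 3567 without CTRL-1326 and 3373 without CTRL-1330.

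**Figure D1:**
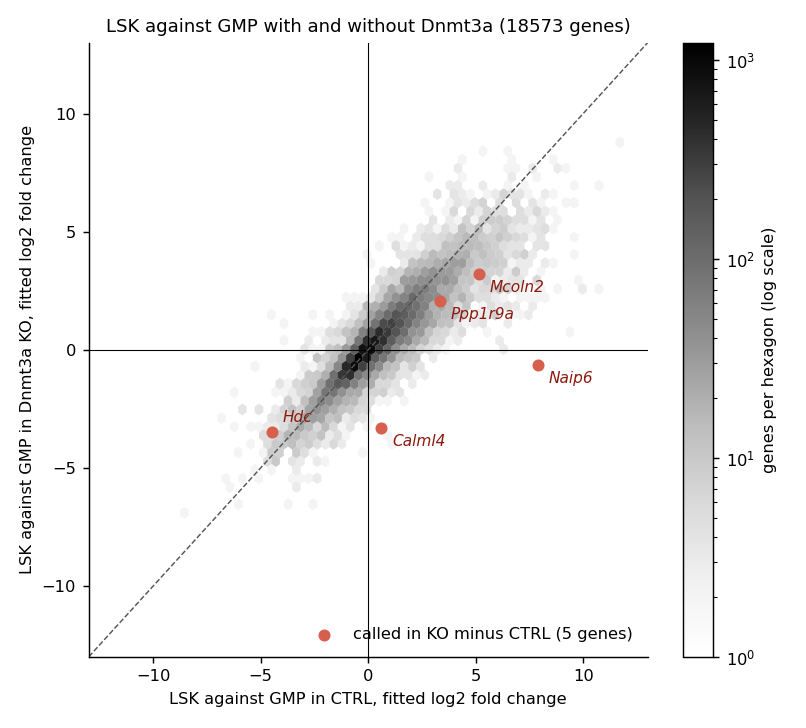
Fitted log2 fold change of LSK against GMP in CTRL (x axis, 4 libraries) and in Dnmt3a KO (y axis, 6 libraries) for the 18573 tested genes, shown as hexagons shaded by the number of genes on a log scale; the dashed line marks equal values. Most genes lie along the dashed line, and the 5 labelled genes passed the test of KO minus CTRL; values of genes with a group near 0 reads depend on the fit and are no bounds.

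The genes with the largest differences toward LSK held regulators and markers of stem cells and early lymphoid progenitors. By the naming rule these were Sgsm1, Mn1, Dntt, Cfap43, Obsl1, Mycn, Esam, Tbxa2r, Lrrc24 and Tgm2. Sgsm1 (chromosome 5, 113243220 to 113310786), which encodes a small G protein signalling modulator, was at 31.4, 17.7 and 17.8 CPM in LSK and at 0.0224, 0.0729 and 0.0353 CPM in GMP of KO mice. Its 3 KO GMP libraries held 13 reads in all, and the 2 CTRL GMP libraries 1 read. Mn1, a transcriptional regulator known from leukaemia, was at 42.1, 36.2 and 33.8 CPM in LSK and 0.101, 0.128 and 0.0707 CPM in GMP. The rule that chose the named genes required the LSK and GMP libraries of KO mice not to overlap. The Mn1 log2 fold change was 8.498 ± 0.22 in KO (adjusted p = 1.29e-07) and 9.23 in CTRL. Dntt, the terminal deoxynucleotidyl transferase of lymphoid progenitors, was at 552, 365 and 349 CPM in LSK and 1.22, 3.22 and 0.153 CPM in GMP of KO mice, a log2 fold change of 8.07 ± 0.82 (adjusted p = 5.85e-05; 8.501 in CTRL). Mycn, a Myc family transcription factor, was at 61.0, 62.3 and 65.2 CPM in LSK and 0.727, 0.747 and 0.177 CPM in GMP (6.81 ± 0.39 in KO and 6.29 in CTRL). For Dntt, Mycn and Esam, an adhesion molecule of stem cells and endothelium (6.71 ± 0.51 in KO and 7.62 in CTRL), KO-352 had the lowest level of the 3 KO GMP libraries. The cilia gene Cfap43 had 7.55 ± 0.33, the cytoskeletal adaptor Obsl1 7.39 ± 0.31, the thromboxane receptor Tbxa2r 6.58 ± 0.33, Lrrc24 6.46 ± 0.24 and the transglutaminase Tgm2 6.43 ± 0.53. Of these 10, Lrrc24 (49.0%) and Tgm2 (21.8%) had over 10% of their exon bases under exons of other genes.

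The largest differences toward GMP included several genes whose exons overlap another gene. By the rule these were Taf9, Xntrpc, Nme2, Plk4, Snrpf, Fdps, Prg2, Mapkapk5, Chil3 and Wfdc21. Taf9, a subunit of the general transcription machinery, was at 152, 170 and 150 CPM in GMP of KO mice and at 0.346, 0.397 and 0.398 CPM in LSK (-8.69 ± 0.14, adjusted p = 2.39e-08). In GENCODE 73.8% of its exon bases lie under Ak6. Overlap was 91.8% for Xntrpc, 48.9% for Nme2, 85.4% for Snrpf, 26.7% for Fdps and 56.5% for Mapkapk5, and it was 0 for Plk4, Prg2, Chil3 and Wfdc21. Such genes called beyond 2-fold were more often higher in GMP: among 511 tested genes with over 50% overlap 19.6% were higher in GMP and 7.44% in LSK, and among 15597 with at most 10% it was 6.71% and 14.5%. Of 41 genes overlapped over 50% by a gene listed only in the LSK table, 51.2% were higher in GMP and 0 in LSK, with a median log2 fold change of -2.38. Whether reads counted for the overlapping gene made these differences was not tested.

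The named genes without such overlap included granulocyte and monocyte genes. Plk4, the kinase of centriole duplication, was at 152, 146 and 144 CPM in GMP and 3.52, 2.78 and 2.65 CPM in LSK of KO mice (-5.62 ± 0.13 in KO and -5.24 in CTRL). The lowest value among the 34 listed S phase and mitosis genes was -1.25 in KO. Overlap was taken from GENCODE, and the annotation release of the count tables is not given. Whether both tables count Plk4 alike was not tested. Prg2, the eosinophil major basic protein, was at 279, 407 and 426 CPM in GMP and 5.33, 9.38 and 12.2 CPM in LSK (-5.37 ± 0.32 in KO and -5.97 in CTRL). Wfdc21 had -5.14 ± 0.28 in KO and -4.59 in CTRL. Chil3, a chitinase-like protein of neutrophils and macrophages, varied most among KO GMP: 464, 1026 and 35.0 CPM, with KO-352 the lowest, against 12.2, 13.8 and 12.0 CPM in LSK. Its log2 fold change of -5.32 ± 1.001 (adjusted p = 0.00182) was lost as a call in limma-voom and in male libraries alone. The next genes with at most 10% overlap, chosen after their values were seen, were Gpr141 (-4.91), Clec4a2 (-4.77), Flt1 (-4.73), Trem3 (-4.64), Clec5a (-4.64) and Ms4a3 (-4.61). Clec4a2, Trem3, Clec5a and Ms4a3 encode membrane proteins of myeloid cells.

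**Figure D2:**
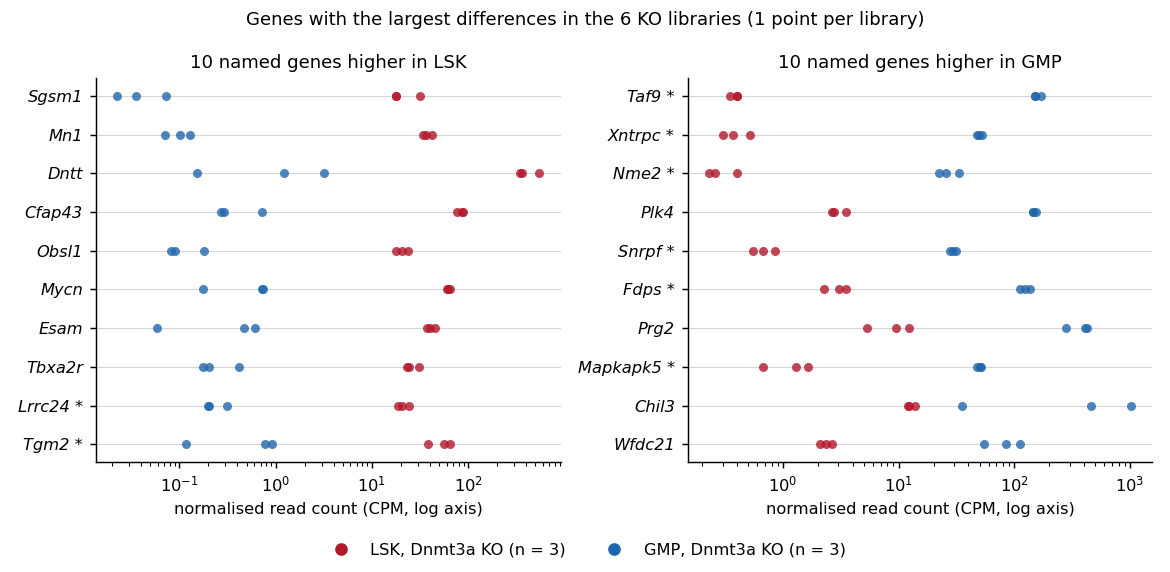
CPM on a log axis of the 10 named genes higher in LSK (left) and the 10 higher in GMP (right), 1 point for each of the 3 LSK and 3 GMP libraries of KO mice; asterisks mark genes with over 10% of their exon bases under other genes. The rule that chose these 20 genes required the populations not to overlap, and Chil3 has the widest spread among GMP libraries on the right, 35.0 to 1026 CPM.

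Promoters of the first 2 named genes of each direction with little exon overlap and a RefSeq entry are shown because methylation of CpG sites is what Dnmt3a catalyses; the 2 directions each held a CpG-rich and a CpG-poor one. Each is 300 bases of RefSeq (GRCm38.p6), from 250 before to 50 after the start, 5′ to 3′ on the gene's strand, with each CG in capitals. Of the 27025 promoters of all genes listed there, 94.2% hold a CG, with a median of 7. No methylation was measured in these libraries, and a CG is a description of the letters. Sgsm1 (chr5:113310737-113311036, minus strand) holds 22, Dntt (chr19:41029025-41029324, plus strand) 2, Plk4 (chr3:40799701-40800000, plus strand) 18 and Chil3 (chr3:106167515-106167814, minus strand) 3.
Sgsm1: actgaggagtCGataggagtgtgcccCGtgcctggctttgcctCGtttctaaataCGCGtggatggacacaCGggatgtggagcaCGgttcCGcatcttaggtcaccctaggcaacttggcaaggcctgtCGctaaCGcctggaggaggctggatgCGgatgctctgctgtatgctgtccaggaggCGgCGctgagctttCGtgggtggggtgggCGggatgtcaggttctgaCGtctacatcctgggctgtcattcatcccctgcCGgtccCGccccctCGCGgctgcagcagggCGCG
Dntt: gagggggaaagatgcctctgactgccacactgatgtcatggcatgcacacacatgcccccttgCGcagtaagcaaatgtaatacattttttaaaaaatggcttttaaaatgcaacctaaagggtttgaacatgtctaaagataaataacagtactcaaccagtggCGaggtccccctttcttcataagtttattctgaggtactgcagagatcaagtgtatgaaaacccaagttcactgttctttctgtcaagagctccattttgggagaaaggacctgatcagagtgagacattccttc
Plk4: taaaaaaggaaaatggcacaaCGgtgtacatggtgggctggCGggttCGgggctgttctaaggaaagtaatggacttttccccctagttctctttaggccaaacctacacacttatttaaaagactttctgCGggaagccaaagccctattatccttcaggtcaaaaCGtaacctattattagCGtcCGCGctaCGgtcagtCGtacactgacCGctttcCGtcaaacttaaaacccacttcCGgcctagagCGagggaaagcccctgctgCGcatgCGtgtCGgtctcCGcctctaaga
Chil3: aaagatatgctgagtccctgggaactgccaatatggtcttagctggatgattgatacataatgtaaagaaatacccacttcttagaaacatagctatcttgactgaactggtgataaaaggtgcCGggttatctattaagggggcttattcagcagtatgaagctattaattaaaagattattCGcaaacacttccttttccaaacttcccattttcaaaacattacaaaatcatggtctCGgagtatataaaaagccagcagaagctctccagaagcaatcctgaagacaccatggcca

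Stem cell genes kept their LSK bias in KO mice. Of 34 stem cell and self-renewal genes 32 were higher in LSK of KO mice and 0 in GMP, where the background was 30.4% and 29.7%, with a median log2 fold change of 3.62 in KO and 3.37 in CTRL (0.08 and 0.12 over all tested genes). All 34 had the same sign in KO and CTRL. Angpt1, an angiopoietin ligand of the receptor Tek, was at 565, 446 and 426 CPM in LSK and 55.3, 77.4 and 25.1 CPM in GMP (3.19 ± 0.36 in KO and 2.75 in CTRL). Lmo2, a bridging factor of the stem cell transcription complex, was at 557, 560 and 543 CPM in LSK and 238, 246 and 291 CPM in GMP (1.10 ± 0.09 in KO and 1.01 in CTRL). Etv6, an ETS repressor, had 0.65 ± 0.09 and 0.79. The members not called were the polycomb gene Bmi1 (-0.11 ± 0.09) and the immediate early gene Egr1 (1.97 ± 0.91, adjusted p = 0.091). Among the other members, named after their values were seen, the transcription factors Mecom (5.78 in KO and 6.04 in CTRL) and Hlf (4.50 and 4.97) were above the list median in both genotypes. In bulk libraries fewer cells of a type and less RNA per cell cannot be told apart.

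Hox genes and their cofactors showed the same direction. Of 18 tested members 17 were higher in LSK of KO mice and 0 in GMP (30.4% and 29.7% of all tested genes). The medians were 2.81 in KO and 3.11 in CTRL, and all 18 had the same sign in both. Hoxa9, a self-renewal factor, was at 67.8, 62.1 and 66.6 CPM in LSK of KO mice and 25.9, 32.9 and 19.2 CPM in GMP, against 16.2 and 13.5 CPM in GMP of CTRL mice. Its LSK bias was 1.33 ± 0.18 in KO and 2.20 in CTRL. Its DNA-binding partner Meis1 had 3.09 ± 0.11 and 3.22, with KO-352 lowest of the KO GMP libraries for both. The log2 fold change was smaller in size in KO than in CTRL for 13 of the 18 members, against 10260 of all 18573 genes, and 0 passed the test of KO minus CTRL. Hoxb8 and Hoxb9 were at 0 in all GMP libraries and were dropped. Each LSK library held only 3 to 12 reads of Hoxb8 and 1 to 12 reads of Hoxb9.

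Lymphoid priming genes were also higher in LSK, with Flt3 as the member that differed most between genotypes by p. Of 24 members 22 were higher in LSK of KO mice and 0 in GMP (30.4% and 29.7% of all tested genes). The medians were 1.93 in KO and 2.13 in CTRL. Flt3, the receptor for Flt3 ligand on multipotent and lymphoid progenitors, was at 512, 409 and 402 CPM in LSK and 102, 180 and 83.0 CPM in GMP of KO mice. In CTRL it was at 525 and 402 CPM in LSK but at 15.7 and 23.7 CPM in GMP. The groups thus overlapped in LSK and did not in GMP, and the LSK bias was 1.86 ± 0.26 in KO (adjusted p = 3.85e-04) and 4.56 in CTRL. The difference of -2.70 did not pass over all genes (adjusted p = 0.094), but passed without KO-352 (-2.90, adjusted p = 0.00654). Ikzf1, a transcription factor of lymphoid specification, had 0.37 ± 0.12 in KO (adjusted p = 0.0273) and 0.80 in CTRL, and its KO call was lost when any 1 of 4 libraries (KO-178, KO-352, KO-1327 or KO-1333) was left out.

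Markers of other lineages that the gates could hold were measured in the same way. Of 16 B cell genes 13 were higher in LSK of KO mice and 0 in GMP (30.4% and 29.7% of all tested genes). The median of these genes was 4.17 in KO and 2.60 in CTRL. Their summed level was 609 to 773 CPM in LSK and 185 to 221 CPM in GMP of KO mice, against 857 and 887 CPM in LSK and 228 and 273 CPM in GMP of CTRL mice. Ighm, the immunoglobulin mu chain, was at 382, 282 and 288 CPM in LSK and 54.8, 59.5 and 106 CPM in GMP (2.11 ± 0.26 in KO and 1.76 in CTRL). Igkc, the kappa chain, had 3.74 ± 0.82 and 6.48, with KO GMP at 15.1, 30.8 and 1.48 CPM, and the surface antigen Cd37 -0.27 ± 0.18 and -0.44.

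The widest gap between the medians of both genotypes was in T and NK cell genes. Of 20 members 10 were higher in LSK of KO mice and 1 in GMP (30.4% and 29.7% of all tested genes). The median was 1.53 in KO and 3.89 in CTRL (3.46 with 2 members at 0 in CTRL GMP set at a floor of 3 reads). The size of the log2 fold change was smaller in KO for 18 of the 20, against 10260 of all 18573 genes. With all libraries 0 of the 20 passed in KO minus CTRL. Their summed level was 89.0, 70.1 and 76.0 CPM in LSK of KO mice, 93.7 and 72.0 in LSK of CTRL mice and 5.39 and 12.3 in GMP of CTRL mice. In GMP of KO mice it was 24.1, 26.5 and 8.14 CPM, so KO-352 lay within the CTRL range and the other two above it. Cd4, the T cell co-receptor, was at 3.06, 4.41 and 1.91 CPM in GMP of KO and 0.148 and 0.269 CPM in GMP of CTRL mice, with LSK at 4.09 to 5.55 CPM in KO. Its LSK bias was 0.65 ± 0.32 in KO (adjusted p = 0.106) and 4.10 in CTRL, and the difference did not pass (adjusted p = 0.14). Lck, a T cell kinase, had 3.17 ± 0.20 and 3.48, and the adaptor Lat 2.95 ± 0.34 and 2.88. Without KO-352 the median in KO was 1.02, and 5 members passed in KO minus CTRL, against 465 of all 18573 genes.

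Megakaryocyte and erythroid genes were higher in LSK in both genotypes. Of 20 megakaryocyte and platelet genes 17 were higher in LSK and 2 in GMP of KO mice (30.4% and 29.7% of all tested genes). The median was 3.11 in KO and 4.39 in CTRL (4.20 with the 1 member at 0 set at the floor). Itga2b, the platelet integrin alpha chain, was at 169, 121 and 154 CPM in LSK and 63.8, 103 and 34.8 CPM in GMP (1.14 ± 0.33 in KO and 1.07 in CTRL). The transcription factor Nfe2 had 1.24 ± 0.09 and 1.11, and the ETS factor Fli1 -0.36 ± 0.07 and -0.49. Of 19 erythroid genes 15 were higher in LSK and 1 in GMP (30.4% and 29.7% of all tested genes). Their medians were 2.75 and 3.96. Car2, a carbonic anhydrase, had 3.85 ± 0.24 and 4.17. Car1, another carbonic anhydrase, was at 53.5, 44.0 and 8.80 CPM in GMP of KO mice and at 1.62 and 12.2 CPM in GMP of CTRL mice, with a bias of 2.32 ± 0.53 and 4.84. The transferrin receptor Tfrc, which is expressed in dividing cells in general, was the member higher in GMP (-1.41 ± 0.14 and -2.09). Of the 16 stromal and endothelial genes 9 were higher in LSK and 3 in GMP (30.4% and 29.7% of all tested genes). Vcam1 was among the latter (-3.77 ± 0.26 in KO and -3.32 in CTRL), as was Pecam1 (-0.24 ± 0.08 and -0.22), while Pdgfrb had 0.85 ± 0.33 and 1.59 and was not called in KO. The median was 2.09 in KO and 3.17 in CTRL, or 2.60 with the 1 member at 0 at the floor.

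On the GMP side, primary granule genes were the list with every member called. All 20 members were higher in GMP of KO mice, where 29.7% of all genes were, with a median of -2.65 in KO and -2.66 in CTRL. Mpo, the myeloperoxidase, was at 9971, 8145 and 12280 CPM in GMP of KO mice and at 1053, 1295 and 1113 CPM in LSK. Its log2 fold change was -3.14 ± 0.15 (adjusted p = 1.4e-06) in KO and -3.36 in CTRL. Ctsg, the granule protease cathepsin G, had -4.16 ± 0.11 and -4.11. Calr, an endoplasmic reticulum chaperone, had -1.64 ± 0.14 and -2.27. LSK and GMP were far apart for all 3, and 0 of the 20 genes passed in KO minus CTRL. Of 18 myeloid transcription factors 14 were higher in GMP and 1, Batf3, in LSK (29.7% and 30.4% of all tested genes). Their medians were -1.21 and -1.08. Irf8, the factor of monocyte and dendritic fate, had -1.34 ± 0.19 and -1.31, Myb -1.07 ± 0.07 and -1.05 and Zeb2 -0.45 ± 0.11 and -0.57. Cebpa, the factor of GMP formation, named after its value was seen, had -1.94 ± 0.11 and -2.06.

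Monocyte and macrophage genes were higher in GMP, with a larger median in KO than in CTRL. Of 20 monocyte and macrophage genes 17 were higher in GMP and 1, Apoe, in LSK of KO mice (29.7% and 30.4% of all genes). The medians were -2.37 in KO and -1.96 in CTRL. The size of the log2 fold change was smaller in KO for 3 of the 20, against 10260 of all 18573 genes. In KO minus CTRL 0 of the 20 passed. Ccr2, the chemokine receptor of monocytes, was at 391, 347 and 355 CPM in GMP of KO mice and 167 and 249 CPM in GMP of CTRL mice. In LSK it was at 30.5, 37.5 and 27.8 CPM in KO and 44.1 and 59.6 CPM in CTRL. Neither population's KO and CTRL libraries overlapped, and the bias was -3.51 ± 0.12 and -2.005, a difference that did not pass (adjusted p = 0.15). F13a1, a coagulation factor subunit of monocytes, had -4.22 ± 0.19 and -3.18, and Ly6c2, a surface marker of monocytes, -4.55 ± 0.09 and -4.21. The summed level of the list was 4273 to 5020 CPM in GMP of KO and 3331 and 4019 CPM in GMP of CTRL mice, and 538 to 652 CPM in LSK of KO and 620 and 780 CPM in LSK of CTRL mice.

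Secondary granule and mature neutrophil genes depended on the library. Of 25 members 17 were higher in GMP and 1, Padi4, in LSK of KO mice (29.7% and 30.4% of all tested genes). The medians were -2.82 in KO and -1.94 in CTRL. Without KO-352, 21 members were higher in GMP, against 5702 of all 18573 genes. Their summed level was 4934, 8291 and 2080 CPM in GMP of KO mice, which spans the 2332 and 4354 CPM of GMP in CTRL mice. S100a9, a calprotectin subunit, was at 1088, 2001 and 213 CPM in these 3 libraries and at 55.1, 70.5 and 61.9 CPM in LSK of KO mice (-4.14 ± 0.68 in KO and -3.40 in CTRL). Its partner S100a8 had -3.91 ± 0.48 and -3.76, and Anxa1, an annexin of leukocytes, -2.82 ± 0.22 and -2.17. KO-352 was the lowest and KO-179 the highest for all 3. The share of reads outside annotated genes also differed, at 15.5%, 16.1% and 10.3% in GMP of KO mice and 8.5% and 14.2% in GMP of CTRL mice. Its part in the result was not tested.

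Mast cell, basophil and eosinophil genes were higher in GMP, with a smaller median in KO than in CTRL. Of 19 tested members 14 were higher in GMP and 0 in LSK (29.7% and 30.4% of all tested genes). The median was -2.58 in KO and -3.48 in CTRL. The size was smaller in KO for 16, against 10260 of all 18573 genes, and 1 member, Hdc, passed in KO minus CTRL. Their summed level was 1208, 1512 and 1169 CPM in GMP of KO mice, below the 1845 and 4948 CPM of GMP in CTRL mice, and 140 to 169 CPM in LSK of KO mice, below the 185 and 204 CPM of LSK in CTRL mice. Cpa3, a mast cell carboxypeptidase, was at 146, 261 and 90.6 CPM in GMP of KO and 238 and 564 CPM in GMP of CTRL mice (-2.98 ± 0.47 and -3.48), so genotypes overlapped. Hdc is described with the genotype difference. Dendritic cell and MHC class II genes were higher in LSK for 10 of 18 and in GMP for 1 (30.4% and 29.7% of all tested genes). Their medians were 1.48 and 1.37. The class II loading gene H2-DMa had 0.96 ± 0.11 and 0.75, and the transcription factor Tcf4 1.25 ± 0.11 and 1.66.

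**Figure D3:**
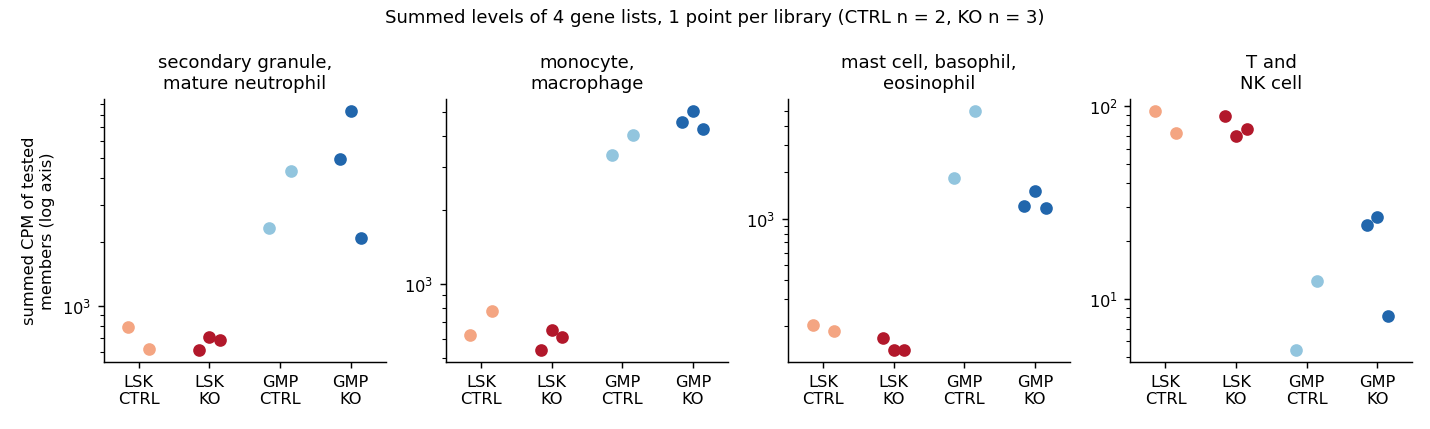
Summed CPM on a log axis of the tested members of 4 lists (25 secondary granule and mature neutrophil, 20 monocyte and macrophage, 19 mast cell, basophil and eosinophil, and 20 T and NK cell genes), 1 point per library in the 4 groups. LSK libraries of both genotypes lie close together, and the 3 GMP libraries of KO mice spread from 2080 to 8291 CPM for the first list and from 8.14 to 26.5 CPM for the last.

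Proliferation, ribosome biogenesis and glycolysis genes were mostly higher in GMP, with the largest median of these 3 lists in glycolysis. Of 34 genes of S phase and mitosis 26 were higher in GMP of KO mice and 2 in LSK (29.7% and 30.4% of all tested genes). Beyond 2-fold 1 was higher in GMP, against 7.25% of all tested genes. The medians were -0.52 in KO and -0.74 in CTRL. The size was smaller in KO for 26 of the 34, against 10260 of all 18573 genes, and 0 of the 34 passed in KO minus CTRL. Top2a, the topoisomerase of dividing cells, was at 1639, 1467 and 1405 CPM in GMP and 1147, 1205 and 1107 CPM in LSK of KO mice (-0.38 ± 0.07 in KO and -0.63 in CTRL). The replication helicase subunit Mcm6 had -0.43 ± 0.10 and -0.76. Mki67, a marker of cycling cells, had -0.37 ± 0.18 and was not called (adjusted p = 0.0996), and its GMP libraries of KO mice were at 1373, 1467 and 869 CPM and its LSK libraries at 1065, 922 and 878 CPM, with KO-352 below all 3 of LSK. Of 24 genes of ribosome biogenesis 18 were higher in GMP and 0 in LSK (29.7% and 30.4% of all tested genes). Their medians were -0.58 and -0.60. Among the 24 were the nucleolar proteins Ncl (-1.33 ± 0.11 and -0.93) and Npm1 (-1.03 ± 0.08 and -0.76) and the helicase Ddx21 (-0.44 ± 0.08 and -0.37). Of 18 glycolysis genes 13 were higher in GMP and 4 in LSK (29.7% and 30.4% of all genes), with medians of -0.98 and -1.18. Among them Gpi1 had -1.66 ± 0.08 and -1.77, Pkm -0.95 ± 0.14 and -1.52, and Ldha -1.001 ± 0.12 and -1.04. Of 5 tested cyclin-dependent kinase inhibitors 2 were higher in LSK, against 30.4% of all tested genes. They were Cdkn1b (0.68 ± 0.11 in KO and 0.60 in CTRL) and Cdkn1c (3.82 ± 0.48 and 4.29). Cdkn2c had 0.52 ± 0.25 and Cdkn2d 0.19 ± 0.18, neither called. Cdkn2a was at 0 in all GMP libraries and was dropped. In LSK it had 1 read in CTRL-1330 and 0 in every other library.

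Interferon response genes were higher in LSK, while cytokine receptors lay on both sides. Of 24 interferon response genes 17 were higher in LSK and 3 in GMP (30.4% and 29.7% of all tested genes). Beyond 2-fold it was 13 and 1 (13.8% and 7.25% of all tested genes). The medians were 1.86 in KO and 2.06 in CTRL. Ifi44, an interferon-induced gene named after its value was seen, was at 16.3, 14.9 and 14.2 CPM in LSK and 0.235, 0.219 and 0.636 CPM in GMP of KO mice (5.39 ± 0.42 in KO and 6.202 in CTRL). Also named after their values were seen, the antiviral gene Rsad2 had 3.75 ± 0.44 and 2.93 and the transcription factor Irf7 1.77 ± 0.19 and 2.09. The GTPase Gbp3 (-1.20 ± 0.12 and -0.83) was in the GMP group, and Trim30a (0.08 ± 0.09) was not called. All groups had received poly(I:C). Of 26 cytokine receptors 10 were higher in LSK and 13 in GMP (30.4% and 29.7% of all tested genes). All 26 had the same sign in both genotypes. The stem cell factor receptor Kit was higher in LSK (1.43 ± 0.11 and 1.76) and the interferon gamma receptor chain Ifngr1 in GMP (-2.26 ± 0.08 and -1.65). Of 24 adhesion genes 11 were higher in LSK and 7 in GMP (30.4% and 29.7% of all tested genes). Cd34 had 0.90 ± 0.09 and 0.85, Cd47, which inhibits phagocytosis, -1.19 ± 0.11 and -0.66, and Emb, an adhesion glycoprotein, -1.81 ± 0.11 and -1.45.

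Genes of DNA methylation and demethylation were called in each direction about as often as all tested genes. Of 19 members 5 were higher in LSK and 6 in GMP (30.4% and 29.7% of all genes), with medians of -0.10 in KO and -0.34 in CTRL, and 8 were not called in KO, Dnmt3a among them. The maintenance methyltransferase Dnmt1 was at 742, 856 and 780 CPM in LSK and 859, 745 and 951 CPM in GMP of KO mice, overlapping (-0.10 ± 0.10 in KO and -0.43 in CTRL). Its cofactor Uhrf1 had -0.12 ± 0.15 and -0.59, with 0.063 in KO without KO-352. Idh2, which supplies 2-oxoglutarate, the cosubstrate of the TET enzymes, had -0.61 ± 0.16 and -0.96. The other de novo enzyme Dnmt3b was higher in LSK by 0.84 ± 0.11 and 0.90, and the dioxygenases Tet1 (1.41 ± 0.13 and 1.10) and Tet2 (-0.79 ± 0.13 and -0.57) lay on opposite sides in both genotypes; these 3 were named after their values were seen. Of 20 imprinted genes 13 were higher in LSK and 2 in GMP (30.4% and 29.7% of all tested genes). Their medians were 2.04 and 2.29. The receptor Igf2r had 1.35 ± 0.37 and 2.02, and the adaptor Grb10 0.89 ± 0.35 and 0.39 and was not called. Of 18 listed germline genes 7 were tested and 3 were higher in LSK, against 30.4% of all tested genes. Ddx4, a helicase of germ cells, was at 9.14, 11.4 and 9.93 CPM in LSK and 0.101, 0.173 and 0.0589 CPM in GMP of KO mice (6.46 ± 0.37 in KO and 5.94 in CTRL). Brdt had 1.35 ± 0.31 and 1.91, and Piwil2 -0.26 ± 0.42 and 1.72.

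**Figure D4:**
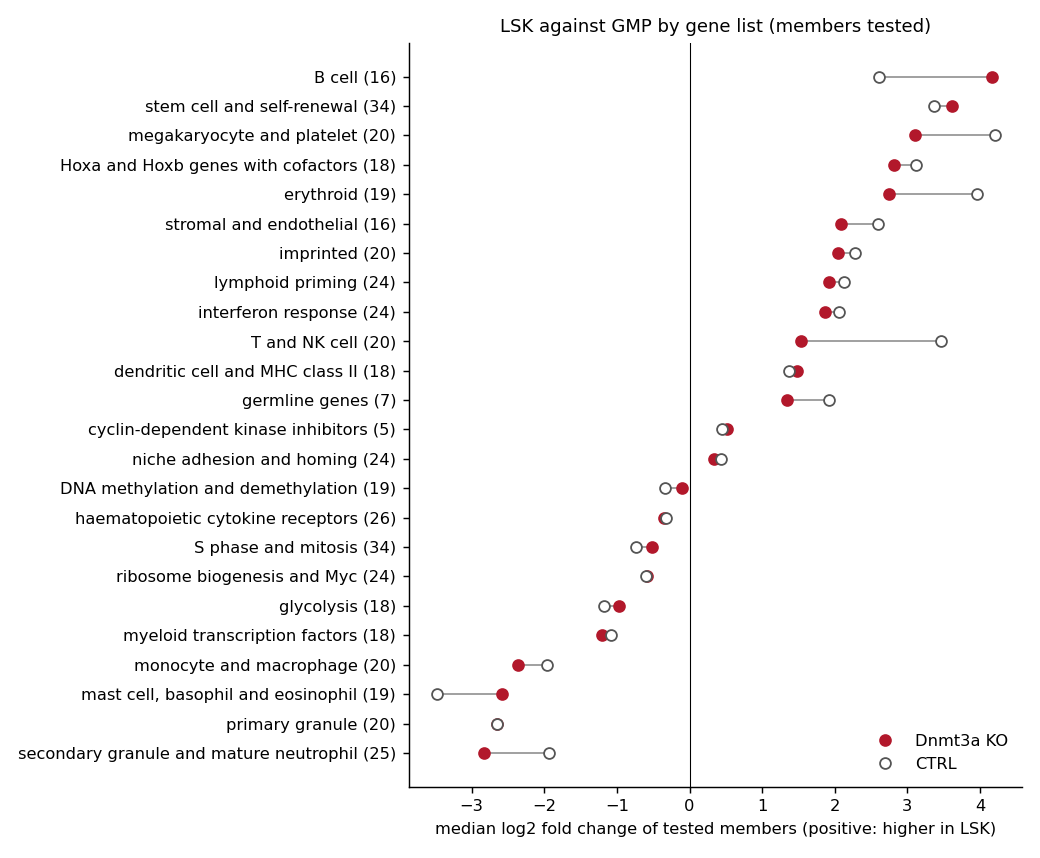
Median log2 fold change of LSK against GMP for 24 gene lists in KO (filled) and CTRL (open), with the number of tested members in brackets and members with a group at 0 reads set at a floor of 3 reads. The order runs from B cell genes (4.17 in KO) to secondary granule genes (-2.82 in KO), and the T and NK cell list has the widest gap between genotypes (1.53 and 3.46).

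Few single genes differed between genotypes in their LSK against GMP difference. In the test of KO minus CTRL over all 10 libraries 5 of 18573 genes passed (0.0269%), 1 (0.00538%) with a more positive value in KO and 4 (0.0215%) with a more negative one, and 1890 (10.2%) had an unadjusted p under 0.05. DESeq2 called 223 and limma-voom 2. Without KO-352, whose CPM had a Spearman correlation across genes of 0.989 with CTRL-346, 0.986 with KO-178 and 0.981 with KO-179, edgeR called 465, all 5 among them, and with any 1 of 4 libraries left out (KO-1334, CTRL-346, CTRL-1326 or CTRL-1330) Naip6 was the single call. All 5 kept their sign in every alternative run. They were chosen by this test, so the separation of their KO and CTRL libraries, given below, is no further support for it.

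Naip6 was far higher in LSK than in GMP of CTRL mice and slightly lower in LSK than in GMP of KO mice. It belongs to the NLR family of inflammasome sensors (chromosome 13, 100281121 to 100317674). In LSK it was at 8.68, 7.73 and 9.93 CPM in KO and at 13.8 and 13.2 CPM in CTRL. In GMP it was at 15.4, 15.6 and 10.3 CPM in KO but at 0.0369 and 0.0733 CPM in CTRL, 9 reads in all. KO and CTRL did not overlap in either population, with KO lower in LSK and far higher in GMP. The log2 fold change was -0.65 ± 0.20 in KO (adjusted p = 0.0193) and 7.88 in CTRL, a difference of -8.54 ± 0.41 (adjusted p = 1.7e-05). The call of the KO value was lost when KO-178, KO-179 or KO-1333 was left out and in male libraries alone. Naip6 has near-identical neighbours in its cluster, with which its reads can be confused.

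Calml4, a calmodulin-like gene, was higher in GMP of KO mice and near equal in both populations of CTRL mice. It was at 8.53, 12.1 and 7.99 CPM in GMP of KO mice and at 0.652 and 0.928 CPM in GMP of CTRL mice, while LSK was at 0.795 to 1.15 CPM in KO and 1.14 and 1.25 CPM in CTRL. The bias was -3.30 ± 0.27 in KO and 0.60 in CTRL (difference -3.90 ± 0.43, adjusted p = 0.014). Ppp1r9a, the actin-binding protein neurabin, which is also a member of the imprinted list, was at 90.4, 90.2 and 91.3 CPM in LSK of KO mice and 21.4, 21.3 and 21.9 CPM in GMP, against 7.81 and 8.88 CPM in GMP of CTRL mice. Its LSK bias was 2.07 ± 0.08 in KO and 3.35 in CTRL (difference -1.28 ± 0.13, adjusted p = 0.010). Mcoln2, an endolysosomal cation channel, had 3.22 ± 0.15 and 5.15 (difference -1.92 ± 0.23, adjusted p = 0.021), with GMP at 4.12, 4.09 and 2.98 CPM in KO and 0.972 and 0.977 CPM in CTRL. For these 3 genes every GMP library of KO mice was above both GMP libraries of CTRL mice.

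Hdc, the histidine decarboxylase of mast cells and basophils, was the gene with the opposite sign. It was at 227, 233 and 229 CPM in GMP of KO mice and at 477 and 466 CPM in GMP of CTRL mice, and at 19.4 to 20.8 CPM in LSK of KO and 20.9 and 21.4 CPM in LSK of CTRL mice. Its GMP bias was -3.50 ± 0.09 in KO and -4.48 in CTRL (difference 0.98 ± 0.11, adjusted p = 0.014). Among the next genes by p, not called, were Zfp467 (5.18 in KO and 3.69 in CTRL, adjusted p = 0.14) and Cnn2 (-0.14 and -0.77, adjusted p = 0.14) in the direction of Hdc. In the other direction, after 2 processed pseudogenes (adjusted p = 0.0524 for Gm11942 and 0.0755 for Gm13717), the protein-coding gene with the smallest p was Casp12 (2.97 and 4.402, adjusted p = 0.076). Cnn2 encodes a calponin of the actin cytoskeleton and Casp12 a caspase.

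The promoters of Naip6 and Hdc are shown as those with the largest difference and the opposite sign, chosen after their values were seen. RefSeq places the Naip6 start 1058 bases and the Hdc start 621 bases from the GENCODE gene start. Naip6 (chr13:100316567-100316866, minus strand) holds 1 CG and Hdc (chr2:126618629-126618928, minus strand) 3, and 14.6% of the promoters in the table hold at most 1 and 31.9% at most 3.
Naip6: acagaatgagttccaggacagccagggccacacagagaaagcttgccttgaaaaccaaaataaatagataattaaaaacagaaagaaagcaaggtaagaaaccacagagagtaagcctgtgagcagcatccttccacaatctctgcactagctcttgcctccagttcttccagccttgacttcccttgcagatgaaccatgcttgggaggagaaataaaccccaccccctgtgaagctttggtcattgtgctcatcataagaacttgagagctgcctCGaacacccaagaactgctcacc
Hdc: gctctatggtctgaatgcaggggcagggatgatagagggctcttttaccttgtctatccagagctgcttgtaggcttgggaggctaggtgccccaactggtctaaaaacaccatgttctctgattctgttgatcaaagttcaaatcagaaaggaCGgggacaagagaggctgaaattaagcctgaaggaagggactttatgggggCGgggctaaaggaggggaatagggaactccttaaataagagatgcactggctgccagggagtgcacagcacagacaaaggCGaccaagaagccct

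**Figure D5:**
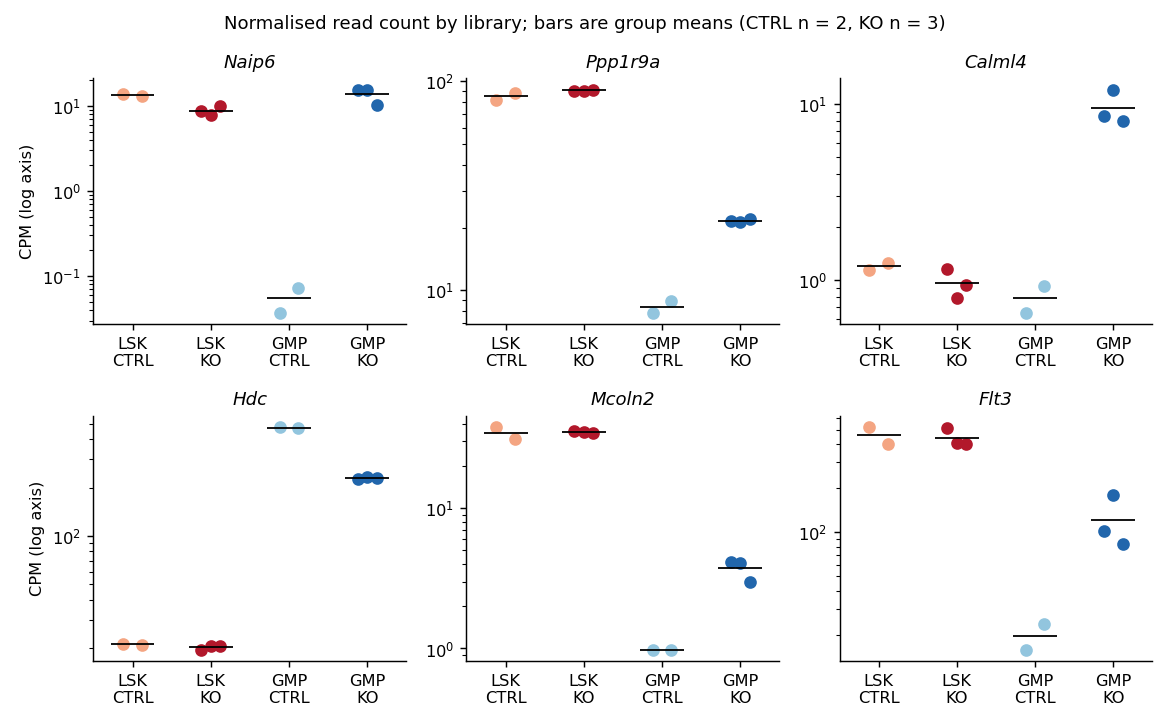
CPM on a log axis by library in LSK and GMP of CTRL and KO mice for the 5 genes that passed the test of KO minus CTRL and for Flt3, which did not (adjusted p = 0.094); bars are group means. The step between genotypes is in GMP for all 6, from 0.0369 and 0.0733 CPM to at least 10.3 CPM for Naip6, while the LSK groups are within 2-fold of each other.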

How the data were processed

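Raw gene counts per library were deposited by the authors in 2 tables, one of LSK and one of GMP, from stranded total RNA libraries. Per the submitters' processing notes, reads were handled with STAR and HTSeq 0.5.3p3 on mm10 (GRCm38), and DESeq 1.18.0 and DESeq2 1.4.5 are named too; annotation release and strand setting: not given in the sources used here. Normalised tables of the authors were not used. Genes were joined by Ensembl ID, and summary rows were left out. Exon overlap was taken from the GENCODE annotation of GRCm38.

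Counts were fitted with the quasi-likelihood test of edgeR 4.0.16 (limma 3.58.1, R 4.3.3), TMM scaling, filterByExpr with a minimum count of 10, Benjamini-Hochberg adjustment and a threshold of 0.05. KO and CTRL contrasts were fitted on their own 6 and 4 libraries, and KO minus CTRL on all 10. The beyond 2-fold call is glmTreat at a log2 of 1. SE was obtained from the log2 fold change and F, as their ratio with F under a root. Named genes were, per direction, the 10 protein-coding genes with the largest change beyond 2-fold, a group mean of at least 20 CPM, at least 10 reads in the lower population, no overlap of KO libraries and no predicted-gene or clone symbol, and the 3 members of each list with the highest KO level, any member called in KO minus CTRL, and the 5 smallest p per direction there at a mean of at least 1 CPM. DESeq2 1.42.0 and limma-voom were alternatives, as were other scaling, filters, gene sets and library sets; male libraries alone and genes with at most 10% exon overlap alone were added after seeing the data, as was the overlap condition for the promoters shown. A planned comparison of promoter CpG content between gene classes is void, since 79.8% of the genes had a promoter entry, under the 80% required. The procedure was tested on simulated data. Members, lists and rules were chosen with earlier results of these data known. The labels do not say beyond the animal number in the titles that libraries are separate animals, so the spread that p-values reflect may be technical. Some genes that these rules name are not reported here.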

Additional observations from a re-analysis of the deposited data

Results flagged for a closer look

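Each of these 5 genes was flagged because the test of KO minus CTRL, an interaction of genotype and population over all 10 libraries, found its LSK against GMP difference to differ between genotypes (edgeR, adjusted p under 0.05). The log2 difference of differences was -8.54 for Naip6, -3.90 for Calml4, -1.92 for Mcoln2 and -1.28 for Ppp1r9a, in each of which GMP of KO mice lay above GMP of CTRL mice in every library. It was 0.98 for Hdc, in which GMP of KO mice lay below GMP of CTRL mice in every library. The same libraries entered the test that chose these genes, so this separation is no further support. LSK libraries of both genotypes overlapped for Calml4 and Mcoln2. For Naip6, Ppp1r9a and Hdc they did not.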

How the results depend on the processing

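Population, count table, annotation and depth cannot be told apart, and CTRL rests on 2 libraries a group. Such effects cancel in KO minus CTRL only where they change a gene by the same factor in all 5 libraries of a table. Whether they do was not tested. The overlap of KO and CTRL calls does not remove them, since both contrasts set the same LSK and GMP tables against each other. No paired analysis was possible because the groups compared share no replicate number. The share of CTRL calls also called in KO was 87.3% and stayed between 80.8% and 96.9% over the alternatives. The KO count of 11171 was 6829 in male libraries alone, where 1 LSK library a genotype is assumed to vary like the others, and 9549 to 11616 with 1 library left out; beyond 2-fold it was 1906 and 3157 to 4043. The CTRL count of 9047 was 3373 in males alone and 3373 to 10213 with 1 library left out; beyond 2-fold it was 831 and 624 to 3821. The KO minus CTRL count of 5 was 223 with DESeq2, 2 with limma-voom and 0 in males alone (628 at an unadjusted p under 0.05), and 1 to 465 with 1 library left out; the cause was not tested. All 5 calls remained among the 465, of which 204 were more positive and 261 more negative in KO. With 1 library left out Dnmt3a in KO ranged from -0.101 to 0.604 and Uhrf1 from -0.247 to 0.063, the reversed values both without KO-352. For the named genes in KO 1523 alternative values kept their direction and side of the threshold, 33 lost the call, 9 gained it and 2 reversed; in KO minus CTRL it was 148 kept, 31 lost and 11 gained.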

Other observations

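Gene classes differed in the direction of their changes beyond 2-fold in KO mice. Of 14241 protein-coding genes 2115 were higher in LSK and 1007 in GMP, of 871 antisense RNAs 118 and 36, and of 479 lincRNAs 70 and 25. Of 1251 processed pseudogenes 40 were higher in LSK and 172 in GMP, and of 259 snoRNA genes 4 and 41. Pseudogenes share sequence with their parent genes and snoRNA genes lie within host genes, so their counts are uncertain. No test of these classes was made.

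Of 653 tested genes on the X chromosome 27.1% were called higher in LSK and 31.9% higher in GMP of KO mice, with a median log2 fold change of -0.11. For 17825 autosomal genes it was 30.5% and 29.7%. Of the 3 LSK libraries of KO mice 2 came from females and the 3 GMP libraries from males.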
